A study of Mus musculus with 2 samples.

Results

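Urea cycle and amino acid catabolism were followed through 44 genes, chosen by name, in single-cell RNA-seq (scRNA-seq) of mouse hepatocytes. Of these 44 genes, 29 were listed in at least 1 of the 2 tables of cluster markers deposited by the authors, which together hold 2783 genes. The table of hepatocyte clusters lists 27 members among 1604 genes, and the table of all cells lists 9 among 1755. Both tables list 7 members. Wild-type BALB/c mice, 8 to 10 weeks old and fasted, received PBS or recombinant IL-33 (rIL-33, 0.5 µg per day, intraperitoneally) over 5 days. Hepatocytes released by enzymatic perfusion of the liver gave 1 droplet-based library of 3ʹ transcript ends for each condition, and the number of mice behind a library is not given in the sources used here. In both tables the libraries are pooled, so no member has a value for PBS or rIL-33 alone, nor for a sample, and no spread between replicates can be set beside a difference. The tables give neither the depth of the libraries nor the number of cells behind a share, so no interval is given, and no test was run.

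Amino acids that are not used for protein are broken down mainly in the liver. Their carbon enters gluconeogenesis, ketogenesis or the citric acid cycle, and their nitrogen is collected as ammonia and aspartate and made into urea. Most enzymes of the urea cycle, and those that degrade histidine and serine, are best known from periportal hepatocytes, and several are induced in fasting by glucagon and glucocorticoids. Oat and glutamine synthetase are known from pericentral cells.

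Each row of the tables gives the share of cells of a cluster in which a gene has a value above 0, and the same share in the reference cells, which are the other hepatocytes or all other cells. A row is present only where the mean in the cluster exceeds the mean in the reference by at least 0.25 on the log2 scale and where at least 1 of the shares reaches 25%. A member that is not listed can therefore still be expressed, and a listed one had already passed these limits, so counts and medians over listed members are descriptions. The fold limit is on the mean, so a listed gene can have a lower share in its cluster although its mean there is higher. From the shares, the clusters Hepatocyte1 to Hepatocyte5, as the authors name them, were computed to hold 55.6%, 14.9%, 10.1%, 18.1% and 1.47% of the hepatocytes. Shares within Hepatocyte5, by far the smallest of these clusters, thus rest on the fewest cells. Of 5 hepatocyte markers, 4 were listed under the symbols searched. The symbol Tf matched no row, and transferrin was listed under its mouse symbol Trf for Hepatocyte4 and Hepatocyte5, with shares 8.4 and 7.5 points higher in the cluster. Alb was at 100% in Hepatocyte4 and Hepatocyte5 as well as in their reference cells, and Ttr at 99.9% in Hepatocyte1. Of 32 markers of other liver cells, 0 were listed for a hepatocyte cluster and 26 for a cluster of other cells. The 4 markers of red blood cells were among those not found in the tables used here.

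Hepatocyte4 was the cluster for which most members were listed, 17 of the 27. Of all genes in the hepatocyte table, 54.7% were listed for it. Among genes within the members' range of shares over all hepatocytes, 62.3% were listed, close to the 63.0% of members. All 17 had a higher share of cells in Hepatocyte4 than in the other hepatocytes, by 5.8 to 56.0 percentage points with a median of 34.8, and the median over all genes listed for this cluster was 33.1 points. Hepatocyte5 listed 6 members (22.2%), against 54.3% of all genes and 39.5% of those in that range of shares. All 6 again had a higher share. Their differences ran from 23.5 to 61.4 points with a median of 51.4, beside 42.9 points over all its genes. Hepatocyte3 listed 7 members against 7.67% of all genes, with differences between -1.6 and 2.8 points. Hepatocyte2 listed 3 members against 3.49%, and Hepatocyte1 listed 0 against 10.5%. Among the 27 members, 21 were listed for 1 hepatocyte cluster and 6 for a pair of clusters.

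**Figure D1:**
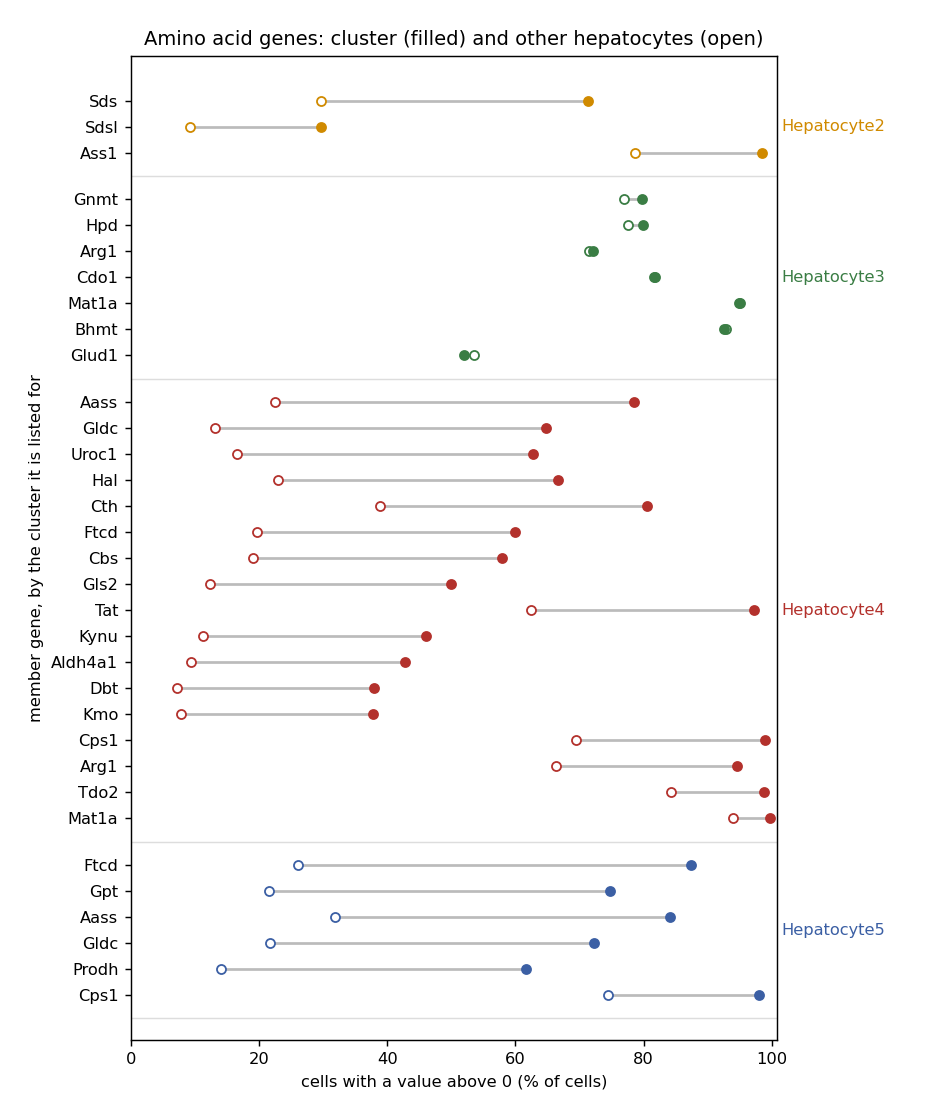
Detection (value above 0), in % of cells, for each member and hepatocyte cluster in the hepatocyte table. Filled points are the cluster the gene is listed for and open points the other hepatocytes. All 17 rows of Hepatocyte4, 6 of Hepatocyte5 and 3 of Hepatocyte2 have the filled point to the right, whereas in the 7 rows of Hepatocyte3 both points nearly coincide.

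Of the 6 urea cycle enzymes, 3 were listed for hepatocyte clusters, each for a different set of clusters. Cps1, the mitochondrial enzyme that fixes ammonia as carbamoyl phosphate and sets the pace of the cycle, was detected (a value above 0) in 99.0% of the cells of Hepatocyte4, against 69.5% outside it. In Hepatocyte5 the shares were 98.0% and 74.5%. Solving for the cells outside both clusters left Cps1 in 69.0% of Hepatocyte1 to Hepatocyte3 cells, and over all hepatocytes its share was 74.8%. Cps1 lies on chromosome 1 of GRCm38.p6 from 67122426 to 67231267. Arg1, the arginase that releases urea, was at 94.6% in Hepatocyte4 and 66.3% outside it. Arg1 was also listed for Hepatocyte3, where its share of 72.1% was close to the 71.4% outside. Ass1, which joins citrulline to aspartate, was the urea cycle gene of Hepatocyte2, with a share of 98.5% in that cluster and 78.7% in the other hepatocytes. Differences in share of more than 10 points for these enzymes were thus found in Hepatocyte4 for Cps1 and Arg1, in Hepatocyte5 for Cps1 and in Hepatocyte2 for Ass1. Nags, which makes the activator of Cps1, and Otc, which makes citrulline, were listed in neither table. Asl, which cleaves argininosuccinate, was listed only in the table of all cells.

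Histidine degradation had 3 of its 4 members listed for Hepatocyte4, beside 54.7% of all genes in the hepatocyte table. Among pathways with 4 or more members this was the most complete listing in that cluster, together with tryptophan. For lysine the 1 member was listed. With so few genes and this background, no excess is read from these counts. Its enzymes act in the order Hal, Uroc1, Amdhd1 and Ftcd. Hal, the ammonia-lyase that opens the pathway, was detected in 66.7% of the cells in Hepatocyte4 and in 23.0% outside it. Uroc1, the urocanase, was at 62.8% and 16.5%, a share 3.81 times as high in the cluster. Ftcd, which passes the last one-carbon unit to tetrahydrofolate, was at 60.0% and 19.6%. The 3 listed enzymes thus differed by 40.4 to 46.3 percentage points, each above the 33.1-point median of the cluster. In Hepatocyte5, Ftcd reached 87.4% against 26.0%, its largest difference and the largest of any member row. Amdhd1, the imidazolonepropionase, was not listed, although its gene lies next to Hal on chromosome 10, with 6576 bases between them.

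Tryptophan degradation also had 3 of 4 enzymes listed, all for Hepatocyte4 and for no other cluster. Tdo2, the dioxygenase that opens the indole ring, was detected in nearly every Hepatocyte4 cell (98.8%) and in 84.3% of the other hepatocytes. Kmo and Kynu, the hydroxylase and hydrolase of the kynurenine branch, were detected in far fewer cells. Kmo was at 37.8% in Hepatocyte4 and 7.8% outside, and Kynu at 46.0% and 11.3%. As ratios of shares these are 4.85 and 4.07, against 1.17 for Tdo2, whose share was already high outside the cluster. Haao, which follows Kynu, was listed in neither table.

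The largest difference of any member in Hepatocyte4 was that of Aass, the bifunctional enzyme that starts mitochondrial lysine degradation. Its share was 78.5% in Hepatocyte4 and 22.5% in the other hepatocytes, rank 23 of the 880 rows of this cluster by difference in share. In Hepatocyte5 it was 84.1% against 31.9%, and in the cells outside both clusters 21.4%. Gldc, the glycine decarboxylase of the glycine cleavage system, came next. Its share was 64.7% in Hepatocyte4 against 13.1%, and 72.2% in Hepatocyte5 against 21.7%, leaving 12.0% in the cells of Hepatocyte1 to Hepatocyte3. For both genes the share in Hepatocyte4 lay below that in Hepatocyte5 by less than 10 percentage points, and both clusters stood well above the remaining hepatocytes.

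The promoters of the 4 members with the largest difference in Hepatocyte4 are shown as RefSeq gives them on GRCm38.p6, from 250 bases before to 50 after the transcription start and 5′ to 3′ on the strand of the gene, because these genes were listed together. Capitals mark matches, on either strand, to 5 motifs: CAAAGTCCA of HNF4A, TGACGT of the cAMP response element, TTGCNNAA of C/EBP factors, ACANNNTGT of the glucocorticoid receptor and TATAAA. Aass lies on chr6:23132937-23133236 on the minus strand, Gldc on chr19:30175392-30175691 on the minus strand, Uroc1 on chr6:90333039-90333338 on the plus strand and Hal on chr10:93488518-93488817 on the plus strand. The RefSeq gene start of Uroc1, 90333239, lies fewer than 250 bases into its window, so that window was not set on this gene start.
Aass: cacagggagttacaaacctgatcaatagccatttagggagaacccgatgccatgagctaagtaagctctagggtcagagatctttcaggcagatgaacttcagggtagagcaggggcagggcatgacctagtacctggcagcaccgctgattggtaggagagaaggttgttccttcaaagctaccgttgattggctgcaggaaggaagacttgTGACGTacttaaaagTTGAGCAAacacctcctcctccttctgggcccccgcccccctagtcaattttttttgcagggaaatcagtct
Gldc: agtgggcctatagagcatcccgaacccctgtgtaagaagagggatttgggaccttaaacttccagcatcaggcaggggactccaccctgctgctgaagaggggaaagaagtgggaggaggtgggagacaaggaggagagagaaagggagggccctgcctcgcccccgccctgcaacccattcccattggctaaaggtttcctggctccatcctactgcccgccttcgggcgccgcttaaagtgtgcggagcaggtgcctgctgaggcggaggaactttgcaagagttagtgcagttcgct
Uroc1: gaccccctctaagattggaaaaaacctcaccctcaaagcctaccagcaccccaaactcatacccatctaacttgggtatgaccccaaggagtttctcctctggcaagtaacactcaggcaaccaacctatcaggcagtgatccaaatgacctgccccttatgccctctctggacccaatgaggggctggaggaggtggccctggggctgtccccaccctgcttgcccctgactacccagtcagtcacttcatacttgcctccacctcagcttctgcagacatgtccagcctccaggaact
Hal: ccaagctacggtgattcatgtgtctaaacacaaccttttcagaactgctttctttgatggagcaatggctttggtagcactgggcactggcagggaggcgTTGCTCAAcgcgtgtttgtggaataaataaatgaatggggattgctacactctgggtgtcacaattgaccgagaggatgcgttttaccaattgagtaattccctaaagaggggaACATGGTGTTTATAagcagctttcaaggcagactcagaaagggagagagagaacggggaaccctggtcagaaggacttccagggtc

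Aass held the cAMP element letters and a C/EBP match, Hal held a C/EBP match and a glucocorticoid receptor match that overlaps its TATAAA match by 1 base, and Gldc and Uroc1 held none of these letters. Among all 32851 promoter windows, 7.51% held the cAMP element letters, 10.8% the C/EBP letters, 6.85% those of the glucocorticoid receptor, 13.6% TATAAA and 0.475% those of HNF4A. Of the 16 listed members with a window, 1, 2, 4, 3 and 0 held them in the same order. A match is a description of the letters, and binding was not measured here.

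The serine and threonine dehydratases were listed for Hepatocyte2, as was Ass1. Sds, which turns serine into pyruvate and ammonia, was detected in 71.3% of the cells in Hepatocyte2 and in 29.7% outside it. Its difference of 41.6 points was the third largest of the 56 rows of that cluster. Sdsl, its close relative, was at 29.7% and 9.2%. The genes are neighbours on chromosome 5 of GRCm38.p6, Sdsl from 120458193 to 120472825 and Sds from 120476547 to 120483932, with 3721 bases between them. Agxt, the peroxisomal transaminase of glyoxylate, was listed in neither table.

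Of the 5 genes that handle glutamate and glutamine or move amino groups, 3 were listed, for 3 different clusters. Gls2, the liver glutaminase that feeds ammonia to Cps1, was at 49.9% in Hepatocyte4 and 12.3% in the other hepatocytes. Gpt, the cytosolic alanine transaminase, was listed for Hepatocyte5, with 74.8% against 21.5%. Glud1, glutamate dehydrogenase, was listed for Hepatocyte3, where the share in the cluster (52.0%) was lower than outside (53.6%). Its mean was higher in the cluster, as the listing requires. The aspartate transaminases Got1 and Got2 were not listed.

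Tyrosine degradation split likewise, with 2 of 4 genes listed. Tat, the fasting-induced transaminase that opens the pathway, was at 97.3% in Hepatocyte4 and 62.5% outside it. Hpd, which forms homogentisate, was listed for Hepatocyte3 at 79.9% and 77.6%. Hgd and Fah, which act after Hpd, were listed in neither table.

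Methionine and cysteine metabolism had 6 of 7 members listed, 4 for Hepatocyte3 and 3 for Hepatocyte4, with Mat1a in both. Cth and Cbs, the enzymes of transsulfuration that convert homocysteine to cysteine, were genes of Hepatocyte4. Cth was at 80.5% in the cluster and 38.8% outside, and Cbs at 57.9% and 19.1%. The listing for Hepatocyte3 held genes of the methyl group cycle and cysteine oxidation, with hardly any difference in share. Gnmt, which consumes S-adenosylmethionine, was at 79.8% in Hepatocyte3 and 77.0% outside. Bhmt, which remethylates homocysteine, was at 92.6% and 92.9%, and Cdo1, the cysteine dioxygenase, at 81.6% and 81.7%. Mat1a, which makes S-adenosylmethionine, was the most widely detected of the 27 members in the hepatocyte table, with 95.1% of all hepatocytes. Its share was 94.9% in Hepatocyte3 and 99.8% in Hepatocyte4, where 5.8 points was the smallest difference of the 17 members. Ahcy, which hydrolyses S-adenosylhomocysteine, was not listed.

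Of the ornithine and proline genes 2 of 3 were listed for hepatocyte clusters, and of the branched-chain and propionate genes 1 of 6. Prodh, which starts proline oxidation, was listed for Hepatocyte5, at 61.6% against 14.1%. Aldh4a1, the dehydrogenase that completes it, was listed for Hepatocyte4, at 42.7% against 9.3%. Dbt, the transacylase core of the branched-chain keto acid dehydrogenase, was at 37.9% in Hepatocyte4 against 7.2%. This 5.26-fold ratio of shares was the highest among the member rows. Its partner subunits Bckdha and Bckdhb were not listed, and neither were Ivd of leucine degradation nor Pcca and Pccb, the subunits of propionyl-CoA carboxylase.

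**Figure D2:**
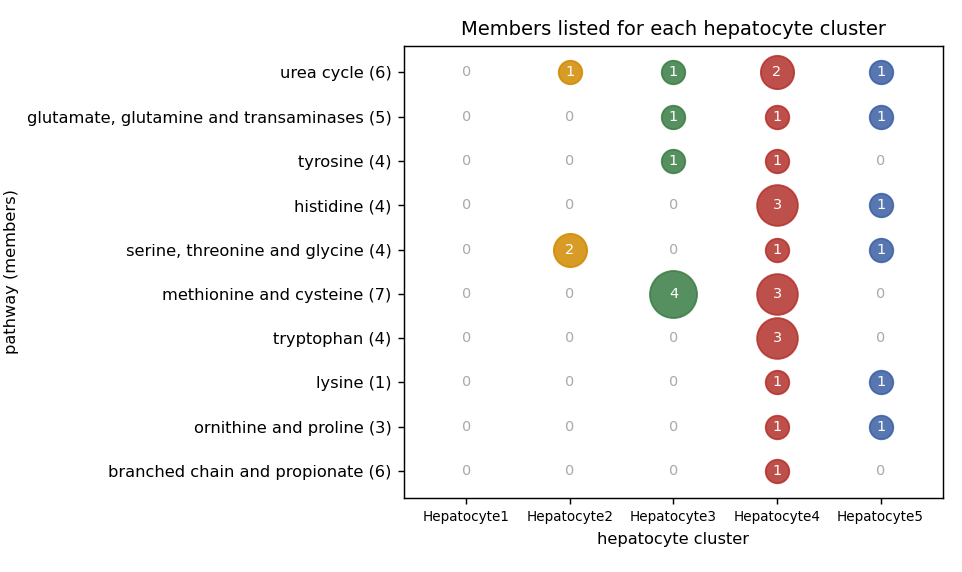
Number of members listed for each hepatocyte cluster (columns) in each of 10 pathways (rows, with the number of members in parentheses). Larger circles hold more genes, and 0 means that no member of the pathway is listed. Hepatocyte4 has at least 1 member of every pathway, Hepatocyte2 only urea cycle and serine genes, and Hepatocyte1 none.

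A description of the shares outside the listed clusters shows how far detection of these genes extended. For the genes listed for Hepatocyte4 alone, the share in the other hepatocytes ran from 7.2% for Dbt to 84.3% for Tdo2. In the clusters they are not listed for, Arg1 was left with 65.5% of cells and Mat1a with 93.9%. Ftcd, listed for both Hepatocyte4 and Hepatocyte5, was left with 18.4% in the remaining cells. Ftcd, Aass and Gldc had a higher share in Hepatocyte5 than in Hepatocyte4, and Cps1 a slightly lower one. Over all hepatocytes the listed members ranged from 12.3% of cells for Sdsl to 95.1% for Mat1a. For the 6 members listed for a pair of clusters, the overall share computed from each cluster alone differed by at most 0.039 percentage points. The cluster sizes were fitted to make such differences small, with these members among the genes fitted, so the closeness is no separate check.

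**Figure D3:**
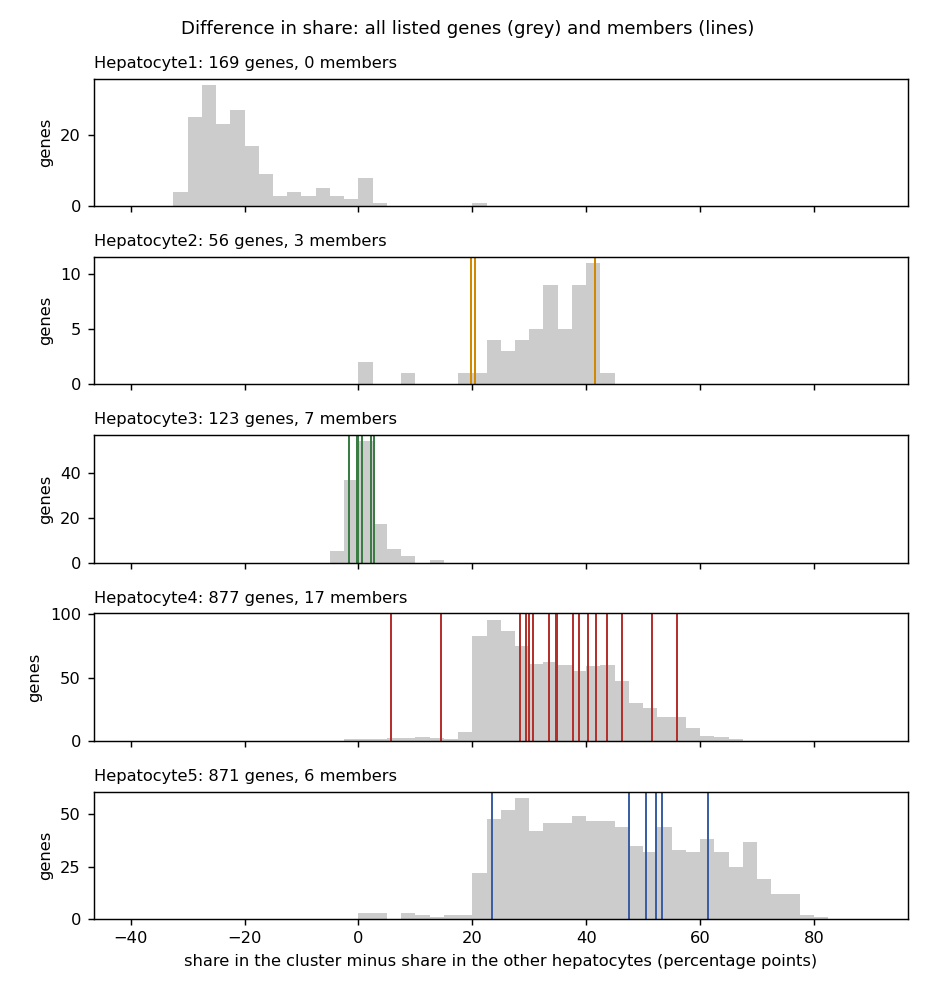
Share in the cluster minus share in the other hepatocytes, in percentage points, for all genes listed for each cluster (grey histograms, number of genes) and for the members (vertical lines). Member lines lie within the grey range in every cluster that has them, between 5.8 and 56.0 points in Hepatocyte4 and between -1.6 and 2.8 points in Hepatocyte3.

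Detection in general and transcript length differed between the clusters along with these lists. In Hepatocyte4, 99.8% of all listed genes had a higher share in the cluster, in Hepatocyte5 99.9%, in Hepatocyte3 64.2% and in Hepatocyte1 4.73%. The longest annotated transcript of the 17 members of Hepatocyte4 had a median of 3431 nucleotides, the same as over all genes listed for the cluster. Members of Hepatocyte5 had a median of 3044 nucleotides, beside 3618 over its genes. For the 7 members of Hepatocyte3 it was 1595, beside 1364 over its genes, and for the 3 of Hepatocyte2 1476, beside 1240. The 15 members in neither table had a median of 2058 nucleotides. The part of transcript length, and of transcripts counted per cell, in the listing of these genes was not tested.

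In the table of all cells, where the reference of each of the 12 clusters is every cell outside it, 9 members were listed and all of these only for hepatocyte clusters. No member was listed for Kupffer cells, neutrophils, B cells, T cells, red blood cells, endothelial cells or the cluster of hepatic stellate cells and fibroblasts, whereas 80.1% of the genes of this table were listed for at least 1 of them. Hepatocyte4 had 7 members (Cps1, Hal, Tat, Uroc1, Gldc, Gls2 and Oat), with 25.2% of all genes listed for it. Hepatocyte5 had 4 (Cps1, Hal, Gldc and Gls2), with 24.7% of all genes. Both backgrounds include the genes listed for other cells, so they are not limited to genes of hepatocytes and no excess of members is read from them. Hal was at 93.4% in Hepatocyte5 against 56.8% of all other cells, and Gls2 at 57.6% against 34.2%. Neither gene was listed for Hepatocyte5 in the hepatocyte table.

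A few members gave another picture in the table of all cells. Sds was listed there for Hepatocyte1 and not for Hepatocyte2, with a share of 57.0% in the cluster and 61.3% in all other cells. Asl was listed for Hepatocyte1 too, at 58.5% against 71.4%. These 2 genes compare with 1.77% of all genes listed for Hepatocyte1. Both had a lower share in the cluster, although their means were higher there, as the listing requires. Oat, ornithine aminotransferase, was listed for Hepatocyte4, at 82.1% against 61.2%, and for Hepatocyte3, at 62.2% against 64.9%, the cluster for which 2.11% of all genes were listed. The mean of Oat was higher in both clusters than in their reference cells, as for every listed row.

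The 2 tables do not hold the same values, so their shares were never combined. Of 825 rows with the same gene and cluster in both, 104 had the same share in the cluster to the 0.1 percentage point deposited, 704 a higher one in the table of all cells and 17 a lower one, with a median excess of 10.5 percentage points. Of the 8 member rows in both tables, 7 were higher in the table of all cells. Hal in Hepatocyte4 differed most, from 66.7% to 89.5%, while Tat and Cps1 in Hepatocyte4 differed by 0.3 and 0.5 points. Relative cluster sizes computed from the hepatocyte table and from the table of all cells were close, at 55.6% and 55.5% for Hepatocyte1. For Hepatocyte5 they were 1.47% and 1.49%. How the values behind the 2 tables differ is not given in the sources used here. A value above 0 is therefore not known to be a counted transcript in both tables.

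**Figure D4:**
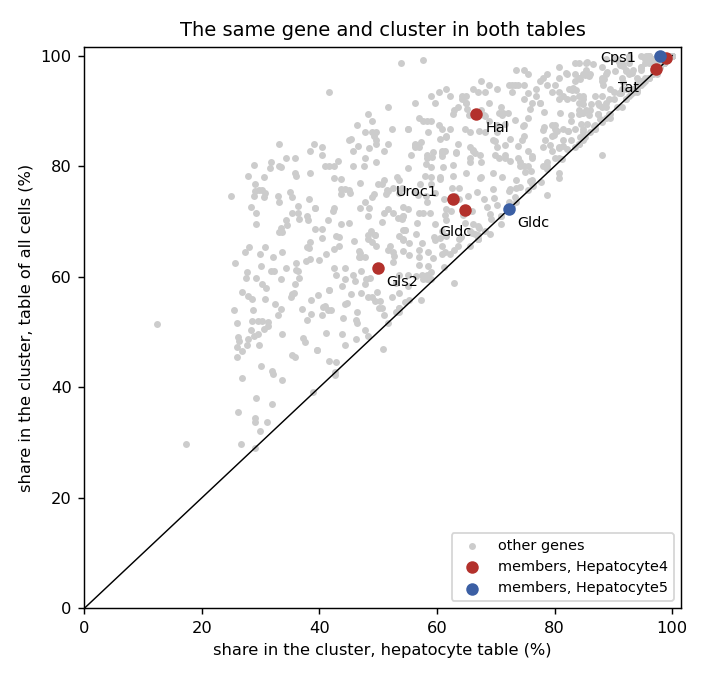
Percentage of cells of the cluster with a value above 0, for the 825 rows with the same gene and cluster in both tables. The horizontal axis (%) is the hepatocyte table and the vertical axis (%) the table of all cells. Coloured points are the 8 member rows, grey points other genes, and the line marks equal shares. Hal lies farthest above the line among members, and Gldc in Hepatocyte5 lies on it at 72.2%.

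A wider list of 106 further symbols of amino acid transport and breakdown was tallied in the same way. Among hepatocytes, 32 of them were listed. Hepatocyte4 took 27 and Hepatocyte5 10, while Hepatocyte1 and Hepatocyte3 had 2 each and Hepatocyte2 had 1. All rows for Hepatocyte4 and Hepatocyte5 had a higher share in the cluster, with medians of 40.9 and 60.5 points, beside 33.1 and 42.9 points over all genes listed for these clusters. Of all genes of the table, 54.7% and 54.3% were listed for them. Both genes of Hepatocyte1 had a lower share in the cluster, Hsd17b10 with 32.4% against 59.0% and Gchfr with 29.1% against 58.7%. Their means were higher there, as for every listed row. Among those with the largest difference in Hepatocyte4 were Slc7a2 (80.9% against 20.0%), Slc38a4 (84.5% against 28.4%), Aldh6a1 (74.9% against 21.4%) and Gpt2 (67.3% against 15.7%). Slc7a2 carries arginine and other cationic amino acids and Slc38a4 small neutral ones, Aldh6a1 acts in valine degradation and Gpt2 is the mitochondrial alanine transaminase. In Hepatocyte5 the transporters Slc38a3 (94.0% against 16.8%), Slc38a2 (84.8% against 15.5%), Slc7a2 (98.0% against 30.0%) and Slc38a4 (100% against 37.6%) were among the 5 largest, with Sardh of sarcosine oxidation (81.5% against 17.5%).

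Several of these genes work directly with members. Slc25a15 and Slc25a13, which carry ornithine and aspartate across the mitochondrial membrane for the urea cycle, were at 58.4% against 15.3% and 70.7% against 22.5% in Hepatocyte4. Dld, the dehydrogenase shared by the glycine cleavage system and the branched-chain complex, was at 41.7% against 10.2% in the same cluster as Gldc and Dbt. Ppm1k, the phosphatase that activates the branched-chain complex, was listed for Hepatocyte4 (41.4% against 9.5%) and Hepatocyte5 (59.6% against 14.6%). Qprt, which takes the tryptophan branch on to NAD, was the gene listed for Hepatocyte2, at 36.3% against 13.2%, alongside Sds, Sdsl and Ass1.

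In the table of all cells, 15 genes of the wider list were listed, 5 of them for clusters outside hepatocytes. Of all genes of that table, 80.1% were listed for at least 1 such cluster. Each of the 5 is given for the cluster with its largest difference, and Glul for others too. Hdc, which makes histamine from histidine, was at 45.1% in neutrophils and 2.4% in all other cells. Glul, glutamine synthetase, was at 74.5% in Kupffer cells and 31.4% elsewhere. In the stellate and fibroblast cluster Glul was at 73.7% against 32.5%, and in neutrophils it was lower, at 24.1% against 32.8%. Odc1, ornithine decarboxylase, was at 90.0% in the cluster named red blood cell and 41.4% elsewhere. None of the 4 red blood cell markers was found for that cluster. Slc38a2 was at 62.3% in B cells and 34.0% elsewhere, and Csad, of taurine synthesis, at 68.4% in the stellate and fibroblast cluster and 33.5% elsewhere.

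The members that were listed in neither table were Nags and Otc of the urea cycle, Got1 and Got2, Hgd and Fah, Amdhd1, Agxt, Ahcy, Haao, and the branched-chain and propionate genes Bckdha, Bckdhb, Ivd, Pcca and Pccb. No share is known for these 15 genes, and their levels could not be compared between clusters.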

How the data were processed

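Per the labels, reads were processed with Cell Ranger against mm10. The authors filtered the cells, normalized and clustered them with Seurat and listed cluster markers with FindAllMarkers, both libraries pooled. The 2 deposited columns of fractions give detection inside a cluster and in its reference cells, and both are printed as percentages. The deposited log2 fold changes and p-values are the authors' own comparisons. The fold changes were read only to find the listing limit, and the p-values were not used. The hepatocyte table has 2103 rows, of which 7 carry date-like names under 5 names and were left out of gene matching, and the table of all cells has 3742.

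Here, cluster sizes were computed by least squares from the balance of both shares over 486 genes listed for at least 2 hepatocyte clusters (root mean square residual 0.0181 percentage points). The fit was tested on simulated data, where it missed the true sizes by at most 0.0326 percentage points over the same 486 genes. The simulated shares were built from the same balance and then rounded, so only the arithmetic and the rounding were tested. A member's share outside its listed clusters was solved from the same balance. Clusters were drawn from the same cells as the shares, and PBS and rIL-33 could not be compared, so no test was made. Coordinates are from RefSeq (GRCm38.p6) and transcript lengths from the GENCODE M21 basic annotation (GRCm38, the assembly also called mm10). Promoter windows were found for 32 of 44 members, and 104 of the 106 wider symbols are in GENCODE M21. All members were to be named, with the 5 largest differences of the wider list in Hepatocyte4 and Hepatocyte5, of which 1 is not reported here, and the promoters of the largest differences in Hepatocyte4. Genes of the wider list that share a complex or route with a member, the genes of Hepatocyte1 and Hepatocyte2 and those of other cells were named after their values were seen. Members and lists were chosen with earlier results of these data known. No doublet caller was run. Alternatives were stricter listing rules, the table of all cells, ratios of shares and other fits of cluster sizes. Motifs, transcript lengths and distances between neighbours were added after the tables were seen. Between fits of cluster sizes, sizes and shares within 1 percentage point were taken as the same. Software was SciPy 1.17.1, pandas 2.3.3, NumPy 2.4.6 and Matplotlib 3.10.9 under Python 3.11.15.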

Additional observations from a re-analysis of the deposited data

How the results depend on the processing

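No paired analysis was possible because each condition has 1 library and both are pooled in the tables. With members counted only where their share was higher in the cluster, Hepatocyte3 had 3 members in place of 7 and the counts of the other clusters did not change. With a share at least 10 points higher, Hepatocyte3 had 0, and with at least 25 points it had 0 and Hepatocyte2 had 1 of its 3. Over all genes listed for Hepatocyte3 the median difference was 1.0 points and the largest 13.6, so no gene listed for it passed the 25-point rule. The 25-point rule left 15 members for Hepatocyte4 and 5 for Hepatocyte5. Medians over all genes listed for Hepatocyte2, Hepatocyte4 and Hepatocyte5 were 33.7, 33.1 and 42.9 points. The share of all genes that pass either rule was not computed, so these counts have no background beside them. In the table of all cells the counts were 2 for Hepatocyte1, 0 for Hepatocyte2, 1 for Hepatocyte3 and 7 for Hepatocyte4. That table holds 9 members in place of 27. The median over members as a ratio of shares was 3.06 in Hepatocyte4 and 3.34 in Hepatocyte5, and in the table of all cells the median difference in Hepatocyte5 was 28.0 points, over 4 members. Limited to the 892 genes whose share over all hepatocytes lay within the members' range of 12.3% to 95.1%, the background of listed genes was 17.9%, 6.05%, 13.3%, 62.3% and 39.5% for Hepatocyte1 to Hepatocyte5. The 17 of 27 members of Hepatocyte4 are 63.0%, and the 6 of Hepatocyte5 are 22.2%. Under the 3 other fits, every cluster size and every member's computed share stayed within 1 percentage point, the shares within 0.031. For the 21 members listed for 1 hepatocyte cluster, the share outside it is the deposited value and cannot move with the fit. The number of cells and transcripts behind a share limits all values and is not given in the tables.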
